A study of Mus musculus with 6 samples.

Results

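The 32 genes described here encode the glucose transporters, glycolytic enzymes and enzyme regulators that take glucose to lactate (22 genes) and further genes that cells switch on when oxygen is low (10 genes). They were listed by name as genes of these pathways, with earlier results of these data known, and found by symbol among the 23329 gene rows of the deposited count tables. Pkm2 is the older symbol of Pkm in these tables. The data are RNA-seq libraries of primary cultures grown from the mesenchyme, the connective and muscle tissue, of the small intestine of C57 mice. The 3 E14.5 cultures came from embryos at embryonic day 14.5, whose gut was cut into pieces. The 3 Adult cultures came from adult mice, whose gut was opened and scraped free of villi. Cells of both groups were freed of epithelium by chelation, digested with collagenase and dispase, grown in serum-containing medium with Y27632, and harvested at passage 2 to 3, with no sorting step named. The oxygen level of the incubators is not given in the labels, the cells were read after the same kind of culture and not fresh from the gut, and the labels do not say which mice or litters a culture came from, so p-values measure the spread between these libraries.

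Glycolysis splits glucose into pyruvate, which is either oxidised in mitochondria or reduced to lactate by lactate dehydrogenase. Several of its steps are run by isoenzymes from separate genes, whose balance differs between tissues and stages. When oxygen is plentiful, prolyl hydroxylases (the Egln genes) mark the hypoxia-inducible factors HIF-1α and HIF-2α for destruction. When oxygen falls the factors persist, bind short DNA elements and raise transporters, glycolytic enzymes, angiogenic peptides and collagen-modifying enzymes, including Egln3 itself, a feedback loop on the sensor.

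The core of the element that these factors bind reads ACGTG or GCGTG. It was searched for on both strands in RefSeq promoter windows (GRCm38.p6) from 250 bases before to 50 bases after each annotated start. Of the 32 genes, 30 had a window, and 26 of these held the core at least once. Counted by window, 34 of 44 (77.3%) held it, against 43.8% of all 32851 windows in the RefSeq table. A match is a description of the letters and not evidence that a factor binds there. Windows of 4 genes are printed. Those of Egln3, Adm and Hk1 are shown because the results below turn on these genes. The results turn on Ndrg1 as well, which had no window. That of Ldha is shown as a textbook target of low oxygen whose level was even between the groups. Capitals mark the core on either strand, so that CACGT and CACGC are cores of the opposite strand, and overlapping cores run together.
Egln3, chr12:54203825-54204124, minus strand: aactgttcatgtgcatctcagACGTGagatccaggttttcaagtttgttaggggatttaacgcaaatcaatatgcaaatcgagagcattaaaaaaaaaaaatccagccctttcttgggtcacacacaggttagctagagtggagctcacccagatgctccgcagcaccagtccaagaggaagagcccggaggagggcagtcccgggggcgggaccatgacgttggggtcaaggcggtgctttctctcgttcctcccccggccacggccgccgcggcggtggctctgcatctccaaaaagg
Adm, chr7:110627407-110627706, plus strand: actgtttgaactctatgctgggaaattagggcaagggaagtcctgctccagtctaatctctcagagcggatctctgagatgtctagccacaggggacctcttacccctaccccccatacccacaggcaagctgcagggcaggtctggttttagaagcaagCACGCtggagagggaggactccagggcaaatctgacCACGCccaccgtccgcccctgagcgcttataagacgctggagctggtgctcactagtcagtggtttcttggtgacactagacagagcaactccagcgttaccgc
Hk1, chr10:62340372-62340671, minus strand: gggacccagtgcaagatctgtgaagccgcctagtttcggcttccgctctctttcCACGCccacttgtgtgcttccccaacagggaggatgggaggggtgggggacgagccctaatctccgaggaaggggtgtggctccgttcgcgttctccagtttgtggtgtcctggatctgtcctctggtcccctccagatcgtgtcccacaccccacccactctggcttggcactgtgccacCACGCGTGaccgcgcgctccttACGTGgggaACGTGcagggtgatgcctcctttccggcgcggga
Ldha, chr7:46845554-46845853, plus strand: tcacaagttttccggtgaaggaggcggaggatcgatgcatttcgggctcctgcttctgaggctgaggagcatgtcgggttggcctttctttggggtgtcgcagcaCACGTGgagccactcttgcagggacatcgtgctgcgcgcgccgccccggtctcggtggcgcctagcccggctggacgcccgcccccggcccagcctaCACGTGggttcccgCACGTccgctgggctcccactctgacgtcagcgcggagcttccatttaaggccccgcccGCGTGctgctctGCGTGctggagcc
The Egln3 window held 1 core, the Adm window 2, the Hk1 window 5 and the printed Ldha window 7. Overlapping cores, such as those on the opposite strands of CACGTG, were counted separately. Another Ldha window, chr7:46846832-46847131, held 2. The printed Ldha window also lies inside its gene, which spans chr7:46841475-46855627 in the GENCODE annotation. The Hk1 window belongs to a start inside the gene, which spans chr10:62268855-62379908 in the GENCODE annotation of the same build, and the window of the start at the gene's outer end held 0.

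Levels are given below as CPM, the usual scaling of counts to a common library total, with the totals adjusted by the TMM method, and always for replicates 1, 2 and 3 of a group in that order. Fold changes are E14.5 over Adult, so a positive log2 value means higher in E14.5. The libraries held 30430596 to 32672370 gene counts in E14.5 and 18850224 to 29903594 in Adult. Other cell types were present and differed between libraries. Endothelial markers (15 of 15 genes with a row) came to a summed level of 22.1 to 67.5 CPM in E14.5, against 37.9, 1999 and 454 CPM in Adult. Macrophage and leukocyte markers (17 of 17) came to 268, 503 and 3097 CPM in E14.5, against 26.3 to 214 CPM in Adult. Mesothelial markers (9 of 10) came to 194, 883 and 174 CPM in E14.5, against 1605, 599 and 809 CPM in Adult. None of these markers was at 0 in all 6 libraries. Muscle markers, led by Acta2 with 9873 CPM or more in E14.5 and 8666 CPM or more in Adult, were high throughout, and epithelial markers summed to at most 1.92 CPM. Of 10 general mesenchymal markers, 1 passed the edgeR test: Pdgfra, a growth factor receptor of fibroblasts, averaged 3.59 ± 1.01 CPM over the E14.5 libraries and 47.4 ± 29.1 CPM over the Adult ones (SD, n = 3 each, log2 fold change -3.72, adjusted p = 0.0361). In 4 of the 10 all E14.5 libraries were lower, against 12.0% of all genes tested, and 1.08% of all genes tested passed the edgeR test. In bulk RNA, a change in the number of cells of a type and a change in RNA per cell cannot be told apart.

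Most of the glycolytic and hypoxia genes had levels of like size in the E14.5 and Adult cultures. Fitted changes reached at least 2-fold in 3 of 31 genes, against 14.2% of all genes tested. The median size of the change, regardless of sign, was 0.22 on the log2 scale, against 0.23 over all genes tested. Of the 31 genes with enough counts to test, 0 passed edgeR's quasi-likelihood test at an adjusted p of 0.05, where 1.08% of all 13478 genes tested did. The smallest adjusted p in edgeR was 0.121, for Hk1. At an unadjusted p under 0.05 stood 6 of the 31 genes, against 17.9% of all genes. DESeq2 called 4 of them (Hk1, Egln3, Ndrg1 and Adm), where it called 11.0% of all 14286 genes it tested, and limma-voom called 0, against 1.02% of all genes. In 7 genes the groups did not overlap on the CPM scale: Pfkl, Pfkfb3, Pgam1 and Egln3 were higher in all E14.5 libraries, and Hk1, Egln1 and Ndrg1 were lower. Over all genes 24.1% did not overlap, 12.1% higher and 12.0% lower in E14.5, so the share among these genes was near the background. The median log2 fold change was 0.01 over the 31 genes and 0.01 over all genes tested.

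**Figure D1:**
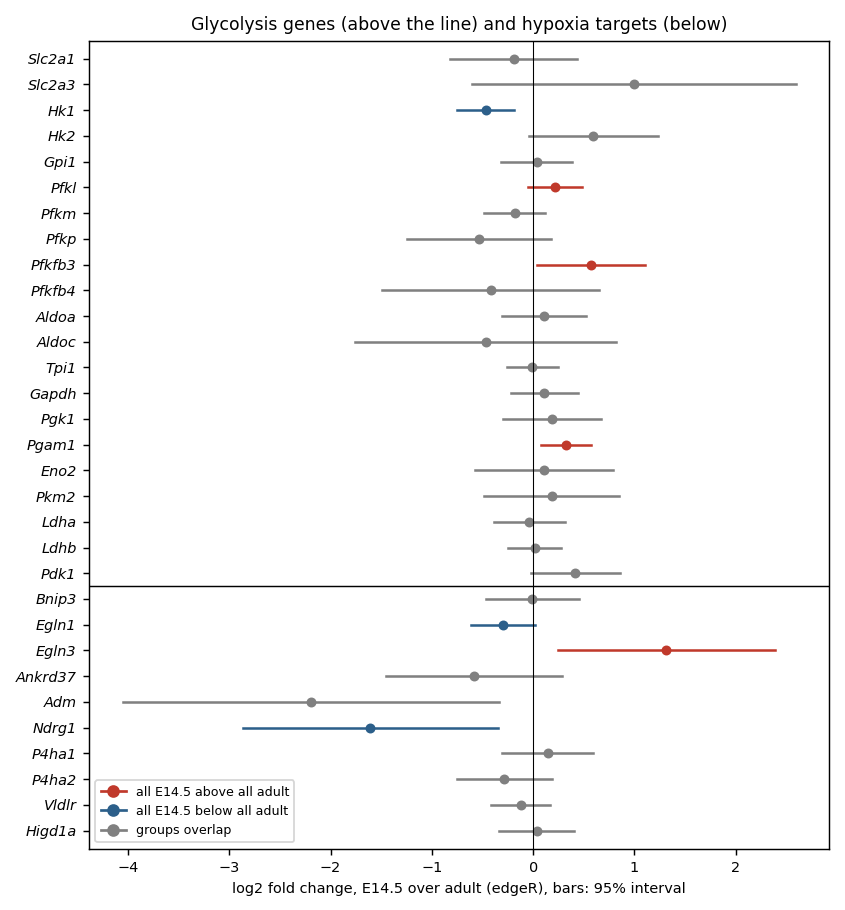
Log2 fold change, E14.5 over Adult, of the 31 genes tested, with bars for the 95% confidence intervals, glycolysis genes above the line and hypoxia targets below it, coloured where the groups do not overlap. The glycolysis genes lie between -0.53 and 1.00, while the hypoxia targets span -2.19 (Adm) to 1.31 (Egln3).

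Glucose enters mesenchymal cells through Slc2a1 (GLUT1), the widespread basal transporter, and Slc2a3 (GLUT3), a high-affinity transporter best known from neurons and the early embryo. Slc2a1 had 105, 109.9 and 74.7 CPM in E14.5, against 133, 74.4 and 123 CPM in Adult. Slc2a3 had 59.8, 80.4 and 32.9 CPM in E14.5, against 50.1, 7.75 and 28.8 CPM in Adult. The groups overlapped for both transporters, and the low value of Slc2a3 in Adult replicate 2 stood apart from all other libraries. The log2 fold change of Slc2a3 was 1.00 (95% interval -0.60 to 2.59, adjusted p = 0.512 in edgeR), and with 1 library left out it ran from 0.55 (without Adult replicate 2) to 1.65 (without Adult replicate 1). Adult replicate 2 was also the library richest in endothelial markers, and the part of this in the value was not tested.

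The hexokinases trap glucose in the cell by phosphorylating it. Hk1 is the constitutive form and Hk2 the form of muscle and growing cells that insulin and low oxygen raise. Hk1 had 90.4, 93.9 and 86.6 CPM in E14.5, against 110.2, 137 and 127 CPM in Adult. All 3 E14.5 libraries lay below all 3 Adult libraries, with means of 90.3 ± 3.65 CPM over the E14.5 libraries and 125 ± 13.7 CPM over the Adult ones (SD, n = 3 each). The log2 fold change was -0.47 (SE 0.12, 95% interval -0.75 to -0.19), with an adjusted p of 0.121 in edgeR and 0.0230 in DESeq2. Hk2 had 96.5, 87.4 and 75.5 CPM in E14.5, against 76.5, 37.5 and 57.9 CPM in Adult. Only E14.5 replicate 3 and Adult replicate 1 crossed, and its log2 fold change of 0.59 (SE 0.26) did not pass (adjusted p = 0.314 in edgeR).

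Phosphofructokinase commits sugar to glycolysis, and its liver (Pfkl), muscle (Pfkm) and platelet (Pfkp) subunits were all present. Pfkl had 94.98, 89.2 and 94.2 CPM in E14.5, against 83.5, 84.7 and 71.4 CPM in Adult. The groups lay apart by a small margin, with a log2 fold change of 0.22 (SE 0.11, adjusted p = 0.374 in edgeR). Pfkp had 96.8, 93.1 and 173 CPM in E14.5, against 182, 135 and 209 CPM in Adult. E14.5 replicate 3, the library richest in macrophage markers, stood above the lowest Adult library and apart from its own group. The log2 fold change of Pfkp was -0.53 with all libraries, and with 1 left out it ran from -0.88 (without E14.5 replicate 3) to -0.38 (without E14.5 replicate 2). Pfkm lay between 31.8 and 37.4 CPM in E14.5 and between 35.2 and 42.5 CPM in Adult. Pfkfb3 and Pfkfb4 make the activator of phosphofructokinase that speeds glycolysis, and both answer to low oxygen in other cells. Pfkfb3 had 140.4, 87.7 and 93.0 CPM in E14.5, against 74.5, 81.5 and 60.3 CPM in Adult. The groups did not overlap, and E14.5 replicate 1 stood well above the rest. Its log2 fold change was 0.57 (SE 0.22, adjusted p = 0.249 in edgeR), and with 1 library left out it ran from 0.32 (without E14.5 replicate 1) to 0.70 (without E14.5 replicate 2). Pfkfb4 lay between 3.47 and 9.49 CPM in E14.5 and between 5.36 and 11.0 CPM in Adult. Per kilobase of transcript it averaged 1.79 CPM in E14.5 and 2.39 in Adult, against 23.1 in E14.5 and 15.6 in Adult for Pfkfb3.

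For the enzymes of the middle of the pathway the groups overlapped. Gpi1, the isomerase ahead of phosphofructokinase, averaged 318 ± 37.3 CPM over the E14.5 libraries and 311 ± 34.8 CPM over the Adult ones (SD, n = 3 each). Aldoa, the aldolase of muscle and most other tissues, averaged 856 ± 165 CPM over the E14.5 libraries and 797 ± 61.7 CPM over the Adult ones. Tpi1, which interconverts the triose phosphates, averaged 219 ± 12.4 CPM over the E14.5 libraries and 220.3 ± 11.4 CPM over the Adult ones. The 95% interval of the log2 fold change ran from -0.26 to 0.24 for Tpi1 and from -0.31 to 0.38 for Gpi1. The groups overlapped as well for the enzymes that follow. Gapdh, often used as a loading control, had 599, 675 and 547 CPM in E14.5, against 615, 526 and 547 CPM in Adult. Pgk1, the ATP-producing phosphoglycerate kinase, had 107, 156 and 99.4 CPM in E14.5, against 98.2, 121 and 99.7 CPM in Adult. Both genes have near-identical copies in the genome, and 80.3% of the 75-base windows of the Gapdh transcript and 67.5% of those of Pgk1 occur elsewhere, so their counts are uncertain. Among the genes that follow, the same holds to a lesser degree for Ldhb (16.8% of windows), Pkm2 (15.6%) and Bnip3 (15.3%).

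For Pgam1, the phosphoglycerate mutase, the groups lay apart. Its counts came to 75.2, 75.3 and 68.1 CPM in E14.5, against 61.8, 55.4 and 57.0 CPM in Adult. Every E14.5 library was above every Adult library, with a log2 fold change of 0.33 (SE 0.10, 95% interval 0.08 to 0.57). The adjusted p in edgeR was 0.172, and 40.6% of its windows are shared with other loci. Eno1, the enolase of most tissues, could not be measured: its row held 0, 0 and 1 counts in E14.5 and 2, 0 and 0 counts in Adult. Of its 75-base windows 64.2% are shared with the copy Eno1b, and the part of this in the missing counts was not tested. Eno2, the enolase of neurons, lay between 5.22 and 7.04 CPM in E14.5 and between 4.12 and 6.81 CPM in Adult.

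Pkm2, the gene of pyruvate kinase, makes an M1 and an M2 splice form that a count per gene does not separate. It had 976, 1554 and 871 CPM in E14.5, against 1251, 823 and 925 CPM in Adult. The spread within each group was larger than the difference between them, and the log2 fold change of 0.18 (SE 0.28) was -0.11 without E14.5 replicate 2. Ldha, which makes lactate, had 489, 596 and 458 CPM in E14.5, against 554, 548 and 483 CPM in Adult. Ldhb, the form of heart and other oxidative tissues, lay between 31.3 and 34.1 CPM in E14.5 and between 30.2 and 34.7 CPM in Adult. The groups overlapped for both, and the log2 fold change of Ldha was -0.04 (95% interval -0.39 to 0.31). Pdk1, a known HIF-1 target, encodes a kinase that holds back the oxidation of pyruvate in mitochondria. It had 28.1, 33.1 and 38.5 CPM in E14.5, against 26.3, 28.3 and 20.1 CPM in Adult. Only E14.5 replicate 1 lay within the Adult range, by a small margin, and the log2 fold change of 0.42 (SE 0.18) did not pass (adjusted p = 0.306 in edgeR).

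Within each group many of the glycolytic genes were high or low in the same libraries. E14.5 replicate 2 had the highest level of its group in 13 of the 21 glycolysis genes tested and the highest of all 6 libraries in 10. Adult replicate 1 was highest of its group in 14, and Adult replicate 2 was lowest of all 6 libraries in 10. The same counts were not made over all genes, so whether this order is particular to glycolytic genes was not tested. Of the 10 hypoxia targets, E14.5 replicate 1 was highest of its group in 5 and E14.5 replicate 2 in 4. Adult replicate 1 was highest of its group in 5 of them and Adult replicate 2 in 4. Together the 22 genes made up 4285, 5441 and 4096 CPM in E14.5, against 4849, 3989 and 4190 CPM in Adult, so the highest and the lowest library came from different groups but the ranges crossed. E14.5 replicate 2 and Adult replicate 1 were also the libraries of their groups with the most mesothelial markers. The 14 proliferation markers ran in the opposite order to these sums within each group, at 237, 136 and 505 CPM in E14.5, against 185, 494 and 271 CPM in Adult. The part of either in the sums was not tested. The median log2 fold change of the 21 genes tested was 0.10, with 13 of them positive, and 0 changed at least 2-fold, against 14.2% of all genes tested.

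**Figure D2:**
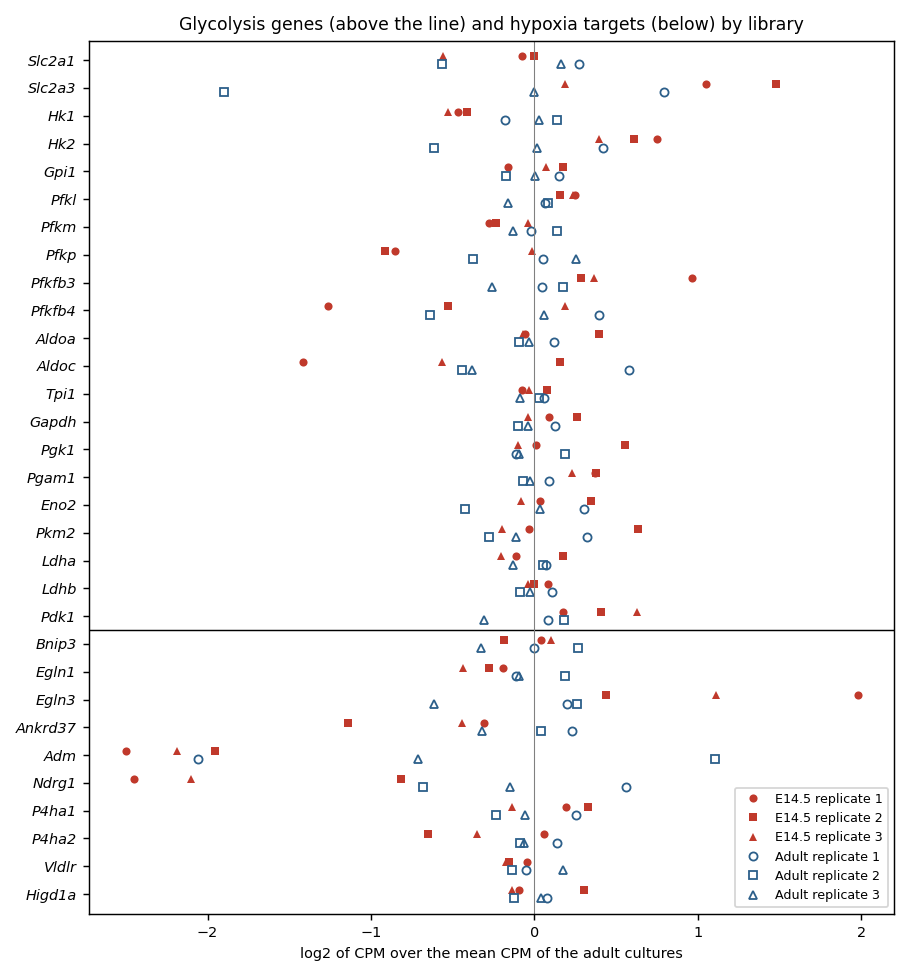
Level of each of the 31 genes tested in every library, as log2 of its CPM over the mean CPM of the Adult cultures, with filled points for E14.5 above open points for Adult in each row (circle, square and triangle for replicates 1, 2 and 3). Points of the groups mix for most genes, and Egln3, Ndrg1 and Hk1 are among the 7 genes whose groups do not overlap.

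The balance of isoenzymes was compared as a log2 ratio of counts within each library, in which library scaling cancels. For 9 ratios the exact two-sided permutation test of 3 against 3 libraries can give no p below 0.10, so none could pass the threshold, and the values are given for their size. Groups did not overlap in 5 of the 9 ratios, each with an exact permutation p of 0.10 (0.18 after Benjamini-Hochberg adjustment over the 9). Single genes lay apart in 24.1% of all genes tested. The share over ratios of other gene pairs was not counted, so whether 5 of 9 is unusual cannot be told. The log2 ratio of Hk2 to Hk1 was 0.09, -0.10 and -0.20 in E14.5, against -0.53, -1.87 and -1.14 in Adult. All E14.5 libraries were higher, and the difference of the means was 1.11 (SE 0.40), or 2.16-fold. Per kilobase of transcript, Hk2 made up 42.7%, 39.4% and 37.8% of the hexokinase pair in E14.5, against 32.7%, 16.0% and 24.1% in Adult. The log2 ratio of Slc2a3 to Slc2a1 was -0.81, -0.45 and -1.18 in E14.5, against -1.41, -3.26 and -2.10 in Adult. Its difference of 1.44 (SE 0.58) was 0.94 at the least when 1 library was left out. Slc2a3 made up 32.1% ± 5.49 of the transporter pair per kilobase in E14.5 and 15.9% ± 7.87 in Adult (SD, n = 3 each).

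The third glycolytic ratio with separate groups was Pfkm to Pfkl, with log2 values of -1.58, -1.44 and -1.33 in E14.5, against -1.132, -0.995 and -1.022 in Adult. Its difference was small but had the smallest error of the 9 (-0.40, SE 0.08). Pfkp to Pfkl overlapped, with a difference of -0.79 (SE 0.38, exact permutation p = 0.20, adjusted 0.257). Per kilobase, Pfkl made up 38.5% ± 6.04 of the 3 subunits in E14.5 and 28.01% ± 4.51 in Adult, and Pfkp 43.4% ± 7.64 in E14.5 and 54.4% ± 7.61 in Adult (SD, n = 3 each). The remaining ratios in glycolysis overlapped. Pfkfb4 to Pfkfb3 differed by -1.02 (SE 0.71, exact permutation p = 0.20) and Aldoc to Aldoa by -0.61 (SE 0.42, exact permutation p = 0.30). Aldoc, the aldolase of brain, lay between 0.532 and 1.58 CPM in E14.5 and between 1.04 and 2.12 CPM in Adult, and made up less than 0.14% of the pair in every library of E14.5 and Adult. Ldhb made up 7.97% ± 1.02 of lactate dehydrogenase per kilobase in E14.5 and 7.64% ± 0.611 in Adult (SD, n = 3 each), and the log2 ratio of Ldhb to Ldha differed by 0.06 (SE 0.14).

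**Figure D3:**
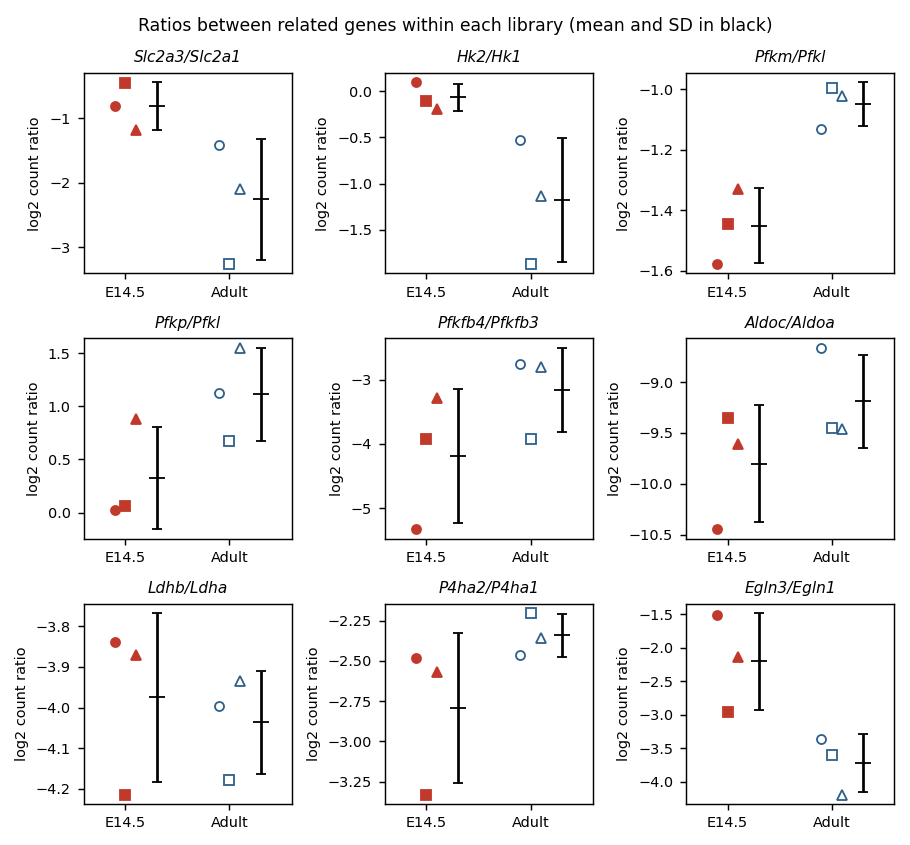
Log2 ratio of counts of isoenzyme pairs in each library, E14.5 left of Adult (circle, square and triangle for replicates 1, 2 and 3), with the mean and SD of each group in black. The groups are separate for Slc2a3/Slc2a1, Hk2/Hk1, Pfkm/Pfkl, P4ha2/P4ha1 and Egln3/Egln1, and they overlap for the other 4 ratios.

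The hypoxia targets outside glycolysis had fitted changes in both directions, none of which passed the edgeR test. A fitted change of at least 2-fold was found in 3 of the 10 (Egln3, Ndrg1 and Adm), against 14.2% of all genes tested. The median log2 fold change was -0.20, with 3 of 10 positive, against a median of 0.01 over all genes tested. The median size regardless of sign was 0.29, against 0.19 for the glycolysis genes and 0.23 for all genes tested. Egln3, the oxygen-sensing prolyl hydroxylase that HIF itself raises, had 35.4, 12.2 and 19.4 CPM in E14.5, against 10.3, 10.8 and 5.87 CPM in Adult. Every E14.5 library was above every Adult library, though E14.5 replicate 2 only narrowly. The log2 fold change was 1.31 (SE 0.44, 95% interval 0.24 to 2.39), with an adjusted p of 0.197 in edgeR and 0.0403 in DESeq2, and with 1 library left out it ran from 0.80 (without E14.5 replicate 1) to 1.61 (without E14.5 replicate 2). Egln1, the main hydroxylase in normal oxygen, had 101, 94.9 and 85.1 CPM in E14.5, against 107, 132 and 108 CPM in Adult. The E14.5 libraries all lay below the Adult ones, with a log2 fold change of -0.30 (SE 0.13, adjusted p = 0.303 in edgeR). The log2 ratio of Egln3 to Egln1 was therefore -1.51, -2.96 and -2.13 in E14.5, against -3.36, -3.61 and -4.20 in Adult, a difference of 1.52 (SE 0.49, exact permutation p = 0.10).

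Ndrg1, a differentiation and stress gene that low oxygen and iron depletion raise, went the other way from Egln3. It had 32.02, 99.5 and 40.7 CPM in E14.5, against 258.5, 109 and 158 CPM in Adult. All E14.5 libraries were lower, but E14.5 replicate 2 came close to Adult replicate 2. The log2 fold change was -1.61 (SE 0.52, 95% interval -2.87 to -0.35), with an adjusted p of 0.183 in edgeR and 0.0201 in DESeq2, and with 1 library left out it ran from -2.27 (without E14.5 replicate 2) to -1.22 (without Adult replicate 1). The library with the highest Ndrg1 in each group, E14.5 replicate 2 and Adult replicate 1, was also the one with the most mesothelial markers, and the part of this in the result was not tested.

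Adm encodes adrenomedullin, a vessel-dilating peptide with a strong hypoxic response that endothelial cells also make. It had 6.63, 9.68 and 8.25 CPM in E14.5, against 9.01, 80.7 and 22.9 CPM in Adult. Adult replicates 2 and 3 were high, and Adult replicate 1 lay within the E14.5 range. The log2 fold change was -2.19 (SE 0.77), with an adjusted p of 0.213 in edgeR and 0.0189 in DESeq2. With 1 library left out it ran from -2.66 (without Adult replicate 1) to -0.96 (without Adult replicate 2). Adult replicates 2 and 3 were also the libraries with the highest endothelial sums (1999 and 454 CPM). Within E14.5 the endothelial sums of 67.5, 22.1 and 37.5 CPM ran in the opposite order to Adm. The proliferation markers, at 185, 494 and 271 CPM in Adult, had the same order as Adm there. The part of either in the result was not tested.

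**Figure D4:**
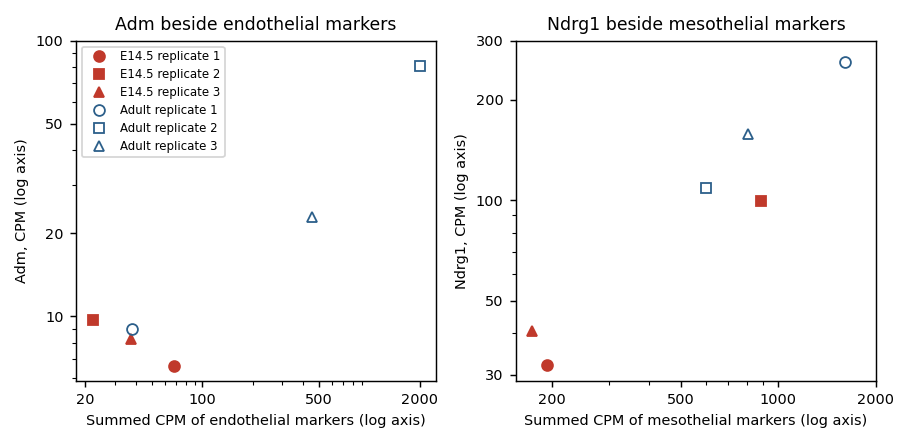
Left, Adm against the summed endothelial markers, and right, Ndrg1 against the summed mesothelial markers, all in CPM on log axes, with 1 point per library (filled for E14.5, open for Adult). Adm is high (80.7 and 22.9 CPM) only in Adult replicates 2 and 3, which lie far to the right, and the 2 E14.5 libraries with low Ndrg1 (32.02 and 40.7 CPM) also have the lowest mesothelial sums.

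P4ha1 and P4ha2 encode the catalytic subunits of collagen prolyl hydroxylase, through which low oxygen acts on matrix. P4ha1 had 611, 671 and 487 CPM in E14.5, against 636, 453 and 514 CPM in Adult. P4ha2 had 109, 66.7 and 82.1 CPM in E14.5, against 115, 98.5 and 100.2 CPM in Adult. Each gene overlapped on its own, while the log2 ratio of P4ha2 to P4ha1 was -2.48, -3.33 and -2.57 in E14.5, against -2.46, -2.20 and -2.36 in Adult. Replicate 1 of E14.5 and replicate 1 of Adult nearly met, and the difference of -0.45 (SE 0.28) came to between -0.61 and -0.18 when 1 library was left out. Bnip3, which sends mitochondria to autophagy, lay between 15.2 and 18.6 CPM in E14.5 and between 13.8 and 20.9 CPM in Adult. Higd1a, a mitochondrial protein that supports respiration under low oxygen, lay between 30.6 and 41.5 CPM in E14.5 and between 30.8 and 35.5 CPM in Adult. Vldlr, a lipoprotein receptor, lay between 160.2 and 175 CPM in E14.5 and between 164 and 203 CPM in Adult. Ankrd37, a small ankyrin-repeat protein, had only 43 to 76 counts in E14.5 and 61 to 91 counts in Adult, and its log2 fold change was -0.59 (SE 0.36, adjusted p = 0.476 in edgeR). None of these 6 genes had an unadjusted p under 0.05 in edgeR.

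Per kilobase of the main transcript, the same 4 genes led in both groups. Aldoa came first, with 567 CPM per kilobase in E14.5 and 528 in Adult, followed by Pkm2 with 466 in E14.5 and 411 in Adult, Gapdh with 427 in E14.5 and 396 in Adult, and Ldha with 291 in E14.5 and 299 in Adult. P4ha1, at 146 CPM per kilobase in E14.5 and 132 in Adult, was the only hypoxia target in the same range as Tpi1, at 136 in E14.5 and 137 in Adult. Egln3, at 8.39 CPM per kilobase in E14.5 and 3.38 in Adult, and Adm, at 5.89 in E14.5 and 27.0 in Adult, stood much lower.

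The neighbouring pathways were counted from lists of further genes. The oxygen-sensing machinery gave 0 calls of 18 genes tested (4 higher and 3 lower in E14.5 with separate groups) in edgeR, with 5 at an unadjusted p under 0.05, 4 calls in DESeq2 and 0 in limma-voom. Over all genes tested 12.1% were higher and 12.0% lower with separate groups, 17.9% had such a p, and DESeq2 called 11.0%. Hif1a, the oxygen-labile subunit of HIF-1, had 247, 190.0 and 178 CPM in E14.5, against 238, 213 and 192 CPM in Adult, and the groups overlapped. Its relative Epas1 (HIF-2α), which was picked out after its values were seen and is strong in endothelium, had 17.1, 8.502 and 22.6 CPM in E14.5, against 29.7, 148 and 52.4 CPM in Adult. All E14.5 libraries were lower (log2 fold change -2.25, SE 0.67, adjusted p = 0.157 in edgeR and 0.00377 in DESeq2). The highest Adult values again fell in replicates 2 and 3, the libraries with the highest endothelial sums. Adult replicate 1 was also above every E14.5 library, while its endothelial sum of 37.9 CPM lay within the E14.5 range. The part of endothelial cells in the Epas1 values was not tested. Hif1an (FIH), which blocks the activity of HIF by hydroxylation and was likewise picked after its values were seen, had 94.8, 94.6 and 74.0 CPM in E14.5, against 61.3, 51.6 and 56.7 CPM in Adult. Its groups lay apart, with a log2 fold change of 0.63 (SE 0.14, adjusted p = 0.0991 in edgeR and 0.00794 in DESeq2).

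Among 40 other hypoxia-induced genes, 1 passed the edgeR test, as a lower one, where 0.838% of all genes tested passed as lower in E14.5 and 0.245% as higher. Tmem45a, a transmembrane protein gene, fell to 18.5, 12.2 and 27.5 CPM in E14.5, against 80.1, 78.5 and 97.9 CPM in Adult (log2 fold change -2.14, SE 0.31, adjusted p = 0.0405). That call was lost when E14.5 replicate 1 or any 1 of the Adult replicates was left out, with scaling by library size alone, with the title prefix as a replicate block, and in both cases where 2 libraries were left out. Groups lay apart for 7 higher and 3 lower genes of the 40, against 12.1% and 12.0% of all genes, and the median log2 fold change was 0.09. At an unadjusted p under 0.05 stood 9 of the 40, against 17.9% of all genes, and DESeq2 called 5, against 11.0%, while limma-voom called 1. Lox, a collagen cross-linker and among the most abundant genes of the list, had 4166, 5963 and 3886 CPM in E14.5, against 5461, 2444 and 5259 CPM in Adult, and the groups overlapped.

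Other glycolytic genes gave 0 calls of 14 tested in edgeR, with 2 at an unadjusted p under 0.05, 2 calls in DESeq2 and 0 in limma-voom. Groups lay apart for 2 higher and 3 lower genes of the 14. Over all genes 17.9% had such a p, DESeq2 called 11.0%, and 12.1% were higher and 12.0% lower with separate groups. Among the 14, Hk3, the hexokinase of white blood cells, had 1.41, 6.18 and 20.8 CPM in E14.5, against 0.644, 0.0497 and 0.176 CPM in Adult, and was highest in E14.5 replicate 3, as the macrophage markers were. Slc2a4, the insulin-sensitive transporter of muscle and fat, had 8.10, 0.341 and 7.79 CPM in E14.5 and at most 0.151 CPM in Adult. Both were picked after their values were seen, and neither passed in edgeR (adjusted p = 0.126 for Hk3 and 0.105 for Slc2a4). DESeq2 called both (adjusted p = 5.99e-05 for Hk3 and 1.28e-05 for Slc2a4). Genes of pyruvate and lactate fate (18 tested, median log2 fold change 0.07), of the pentose phosphate pathway (11 tested, 0.07), of the tricarboxylic acid cycle (20 tested, 0.11) and of the respiratory chain (31 tested, 0.17) gave 0 calls each in edgeR. At an unadjusted p under 0.05 stood 1, 3, 5 and 6 genes of these 4 lists, against 17.9% of all genes. DESeq2 called 1, 2, 1 and 1, against 11.0%, and limma-voom called 0 in each, against 1.02%. Groups lay apart for 2 higher and 2 lower genes of pyruvate and lactate fate. They lay apart for 2 higher and 1 lower gene of the pentose phosphate pathway, and 6 higher and 1 lower of the tricarboxylic acid cycle. In the respiratory list 14 genes were higher in all E14.5 libraries and 0 lower, against 12.1% and 12.0% over all genes, with small changes such as 0.17 for Atp5b, a subunit of ATP synthase, which had 1069, 1069 and 977 CPM in E14.5, against 959, 912 and 899.6 CPM in Adult. The genes of such a list share subunits of the same complexes and the same libraries, and no test of the list was made.

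**Figure D5:**
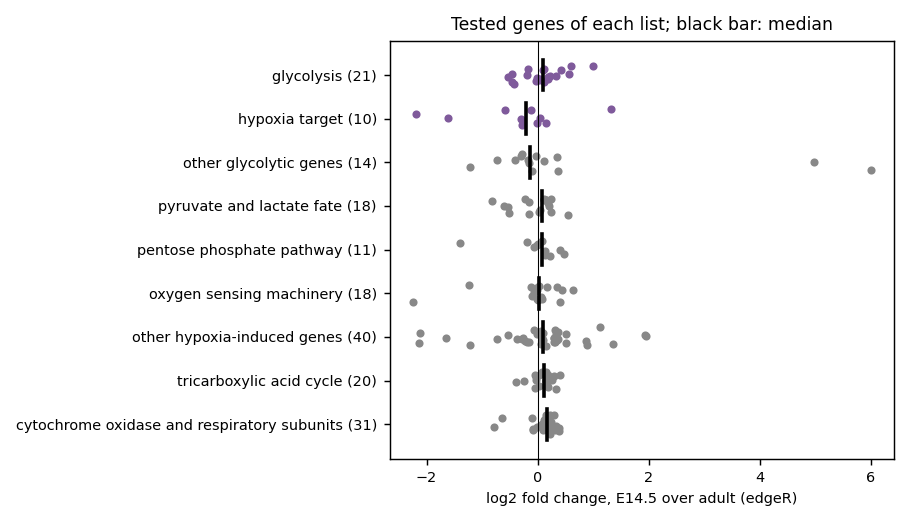
Log2 fold change, E14.5 over Adult, of each tested gene in the glycolysis, hypoxia and neighbouring lists, with the median of each list as a black bar. The 2 points far to the right are Hk3 and Slc2a4, and medians lie between -0.20 for the hypoxia targets and 0.17 for the respiratory chain, against 0.01 over all genes tested.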

How the data were processed

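RNA-seq was made from 6 cultures, 3 per group, as stranded poly(A) libraries with single-end 75-base reads, per the labels' protocols. The authors deposited raw read counts per gene in 1 table per library. Reads were aligned with STAR to mm10, per the submitters' processing notes. For the annotation and for multiply mapped reads, the sources used here give no rule. The reverse-strand counts were used, since forward-strand counts made up 1.33% to 1.69% of stranded gene counts (8.52% for Ankrd37, which is therefore less certain). Rows that name no gene held 17.45% to 19.81% of reads and were left out.

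Genes were tested with edgeR 4.0.16 (TMM, filterByExpr, robust quasi-likelihood) in R 4.3.3 over 13478 genes, with Benjamini-Hochberg adjustment over all of them at 0.05. DESeq2 1.42.0, limma-voom (limma 3.58.1), other scalings and filters, the unstranded counts and left-out libraries were alternatives. The script was tested on simulated data. Isoenzyme ratios used counts plus 0.5, and the ratio of Eno2 to Eno1 was dropped because Eno1 had no usable counts. Levels per kilobase used the longest principal transcript of GENCODE. Libraries held 18850224 or more gene counts. Title prefixes, each borne by 1 library of either group and not explained in the labels, served only as a replicate block in an alternative.

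The genes and lists were chosen with earlier results of these data known. All 32 genes are accounted for. Of the other lists, genes past the threshold and the 2 most abundant were to be named, of which 1 gene is not reported here, and others are marked as picked after their values were seen.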

Additional observations from a re-analysis of the deposited data

How the results depend on the processing

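Across the 17 alternatives, 0 of the 31 genes passed in any but DESeq2, which called 4. Calls over all genes, 146 with all libraries, came to 1565 in DESeq2, 2 with the title prefix as a replicate block, 3 to 471 with 1 library left out, 36 when Adult replicate 2 and E14.5 replicate 3 were left out, and 0 when Adult replicates 2 and 3 were (a choice made after seeing the data). Calls in the neighbouring pathways, 1 in the main analysis, came to 0 with library size alone, 16 in DESeq2, 0 with the replicate block, 0 to 5 with 1 library left out, and 0 in either case of 2 left-out libraries. Genes with separate groups numbered 9 to 11 with 1 library left out and 16 in either case of 2, since fewer libraries overlap less. The median log2 fold change of the glycolysis genes came to between -0.041 and 0.18 with 1 library left out and to -0.10 with Adult replicates 2 and 3 left out. Small fold changes turned sign. With 1 library left out the log2 values ran from -0.066 to 0.19 for Aldoa, -0.15 to 0.14 for Bnip3, -0.064 to 0.29 for Eno2, -0.049 to 0.12 for Gpi1, -0.12 to 0.12 for Higd1a, -0.16 to 0.040 for Ldha, -0.031 to 0.071 for Ldhb, -0.041 to 0.31 for Pgk1, -0.11 to 0.37 for Pkm2, -0.055 to 0.019 for Tpi1, and -0.010 to 0.18 for the ratio of Ldhb to Ldha. Library size alone gave 0.031 for Tpi1 and 0.023 for Bnip3, upper-quartile scaling 0.0264 for Tpi1 and 0.0257 for Bnip3, voom 0.032 and the replicate block 0.0062 for Bnip3. With Adult replicate 2 and E14.5 replicate 3 left out the values were -0.070 for Gpi1, 0.011 for Tpi1, 0.061 for Ldha, -0.0063 for Ldhb, 0.082 for Bnip3 and -0.062 for the ratio of Ldhb to Ldha. With Adult replicates 2 and 3 left out they were -0.12 for Gpi1, -0.021 for Aldoa, -0.024 for Gapdh, -0.19 for Eno2, -0.15 for Pkm2, -0.10 for Ldhb, -0.11 for P4ha1 and -0.046 for Higd1a. The cause was not tested. Deviations of libraries with the same number correlated at -0.141, -0.229 and -0.0875, which gave no sign of pairing, whereas their forward-strand shares were close (1.345% and 1.332%, 1.49% and 1.54%, 1.682% and 1.687% for E14.5 and Adult), so a shared batch cannot be told from these values. The median SE of the 31 log2 fold changes was 0.19.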
